A study of Homo sapiens with 4 samples.

Results

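Among the m7G peaks listed for 2 acute myeloid leukemia lines, HL60 and its drug-resistant counterpart HL60/MX2, those that began at the first base and ended at the last base of a single coding exon were described. A peak was counted when both of its ends equalled the ends of 1 exon of a protein-coding gene on the same strand, and when its largest overlap with the longest coding transcript of that gene was coding sequence lying more than 100 nt from the start and stop codons. The HL60 list held 1357 such peaks among 8070 (16.8%), and the HL60/MX2 list held 1133 among 8122 (13.9%), which makes 2490 of 16192 listed peaks. They made up 33.1% of the 4103 coding peaks of HL60 and 29.4% of the 3852 coding peaks of HL60/MX2, and they fell on 2441 distinct exons. The series compares the m7G profile of unmodified HL60 cells, labelled as wild type, with that of HL60/MX2 cells, labelled as drug-resistant. Both lines were grown in the same serum-supplemented medium, and their poly(A) RNA was decapped, fragmented to about 200 nt and enriched with an m7G antibody. There was 1 enriched library per line, so the spread between cultures is unknown, no difference between the lines was tested, and every interval below is an exact Clopper-Pearson 95% interval that covers counting error only. The matching input libraries were not analysed here. Read counts are not part of the lists, and how deeply each peak was sequenced is therefore unknown.

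N7-methylguanosine, m7G, is known best as the cap at the 5' end of mRNA, and it also occurs inside tRNA, rRNA and mRNA, where METTL1 with its partner WDR4 is a known methyltransferase. In MeRIP-seq, fragments pulled down by an antibody are sequenced and a peak is called where they exceed the input, so a call marks a stretch of RNA and not a single base. Introns are removed from the primary transcript between a splice donor, usually GT in the DNA, and a splice acceptor, usually AG, and the exons that remain are joined. HL60 is a promyelocytic leukemia line, and HL60/MX2 is a derivative of it selected with the topoisomerase poison mitoxantrone. Peak lists carry no expression values, and 0 of the 174 eligible exons of a list of 20 myeloid marker genes carried a whole-exon peak in either list, so the labelled cell type could not be checked from these peaks.

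By the rule that chose them, the peaks end where annotated exons end. To show what a whole-exon peak is bounded by, the bases around the acceptor and the donor of 3 exons that were covered whole in both lists are given from hg19, on the strand of the gene, with the exon in capitals and the intron in lower case. METTL14, a subunit of the m6A writer complex, has this exon at chr4:119621705-119621797 on the plus strand. UNC13A, a priming factor of synaptic vesicles, has it at chr19:17740954-17741097 on the minus strand, and RB1, the retinoblastoma tumor suppressor, at chr13:48954301-48954377 on the plus strand.
METTL14 acceptor: atcgttttgatttcttacagATTATGAAGT
METTL14 donor: GACCTTGGAAGAGTGgtaagatggtgcttt
UNC13A acceptor: tggcctccttccccctgcagTTCCAGCAGA
UNC13A donor: AGGCGCTTTGCCAAGgtgtgggagagtggg
RB1 acceptor: tctttttttttttcctttagCAAACTTCTG
RB1 donor: TGGCCACATATAGCAgtaagttaaattttc
In HL60, 1327 of the 1357 peaks (97.8%) lay between AG and GT, and in HL60/MX2 1108 of 1133 (97.8%) did, against 96.3% of the 154083 eligible exons, a description that the choice of whole exons fixes. Eligible exons here are the exons of the longest coding transcripts, in 17476 genes, that meet the same condition on coding sequence.

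A second set of sequences is given because purine-rich exons, those rich in the bases A and G, occurred among the highest scores of HL60/MX2. Of the 11 exons that share the score of 3100 in that list, 6 held at least 70% purines, and the contents of all 11 ran from 47.2% to 82.1%. Purine content and this level were chosen after the values were seen. For 5 of those 6, and for the exons of IL27 and LUC7L3, which held the fewest purines of the 11, the window of 30 bases with the most purines is shown on the strand of the gene, with each GGAAA or GGAAG in capitals. The windows are chr5:65466474-65466503 (plus) in SREK1, chr13:46549605-46549634 (minus) in ZC3H13, chr19:4422601-4422630 (plus) in CHAF1A, chr11:61914162-61914191 (plus) in INCENP, chr9:100773553-100773582 (plus) in ANP32B, chr17:48822031-48822060 (plus) in LUC7L3 and chr16:28513344-28513373 (minus) in IL27. The 3 highest-scoring exons of HL60 follow, with windows at chr10:47669105-47669134 (plus) in ANTXRL, chr14:19559096-19559125 (plus) in POTEM and chr6:161045159-161045188 (minus) in LPA.
SREK1: agGGAAAaggagagagagagGGAAAaggaa
ZC3H13: gagaaagagaagagagagagagggagagag
CHAF1A: agaaagGGAAGaaaaggagaagctgaaaga
INCENP: gcagaagaagaaGGAAGaggagcaggagcg
ANP32B: aaggagaagatgaGGAAGacgaggacgatg
LUC7L3: gcacaagaaaaacaaatGGAAGtttgtgaa
IL27: ggaccaacatggagaggatgcagctgtggg
ANTXRL: agtggagaatggcttcaaggccctgagaag
POTEM: tacaatgaagataaattaatggccaaagca
LPA: tatacgagggatcccggtgtcaggtgggag
The number of purines in these windows was 30 of 30 bases in SREK1 and ZC3H13, 28 in CHAF1A, 27 in INCENP, 26 in ANP32B, 22 in LUC7L3 and 21 in IL27. It was 20 in ANTXRL and POTEM and 19 in LPA. Over the whole exon, 0 of the 10 highest-scoring exons of HL60 held at least 70% purines, and their contents ran from 47.5% to 63.6%.

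Among exons touched by a peak, short ones were covered whole far more often than long ones. A longer exon needs a longer peak to be covered whole. The other coding peaks had median lengths of 87.5 nt in HL60 and 91 nt in HL60/MX2, and the part of peak length in this trend was not tested. Among the eligible exons of up to 50 nt that any HL60 peak touched, 65.0% were covered from end to end (95% interval 56.6 to 72.8), and in HL60/MX2 65.6% were (54.8 to 75.3). The share fell with every step in exon length in both lists. It was 38.6% in HL60 and 34.5% in HL60/MX2 at 100 to 150 nt, and 2.26% and 2.85% over 300 nt. The covered exons had a median length of 114 nt in HL60 (quartiles 82 to 150) and 113 nt in HL60/MX2 (82 to 153), against 126 nt (92 to 171) for the eligible exons. Ends at exon ends were not confined to these peaks, since 85.0% of the other coding peaks of HL60 and 84.1% of those of HL60/MX2 had at least 1 end at an exon end. The authors chose peaks by their overlap with exons, and the part of that step in the position of the ends was not tested.

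**Figure D1:**
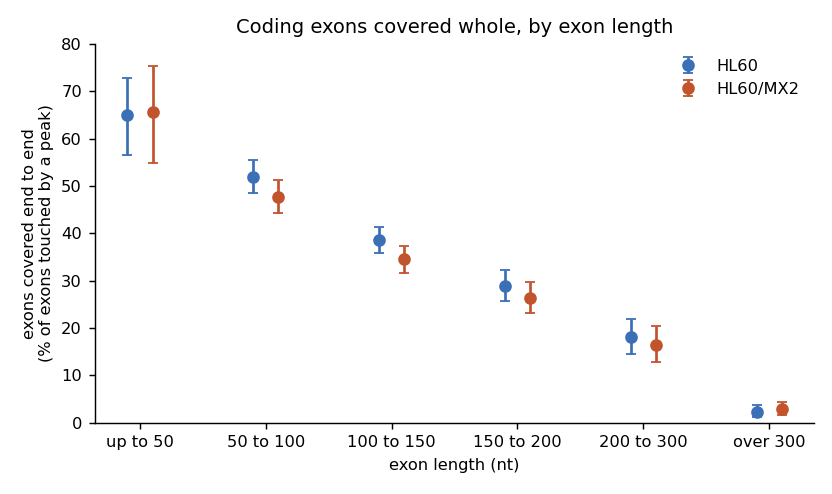
Percentage of eligible coding exons touched by a peak that were covered end to end (y axis) by exon length in nt (x axis), with HL60 in blue and HL60/MX2 in orange and bars for exact 95% intervals. The share falls from 65.0% in HL60 and 65.6% in HL60/MX2 for exons of up to 50 nt to 2.26% and 2.85% for exons over 300 nt.

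At the short end were microexons, which are far shorter than the RNA fragments that were enriched. A listed interval of this length therefore does not show that the m7G lay within the exon. The other coding peaks were as short as 1 nt in HL60 and in HL60/MX2. Whether the peaks as first called were longer than the listed intervals was not tested. In HL60 the shortest covered exon was exon 8 of MUSK, the receptor kinase of the neuromuscular junction, with 7 nt and a score of 213. It was followed by exons of 12 nt in CACNA1E (exon 26), ERO1A (exon 9) and STX16 (exon 2), with scores of 386, 90.4 and 84.8, and by 19 nt in RNF185. CACNA1E encodes a voltage-gated calcium channel, ERO1A an oxidase of the endoplasmic reticulum and STX16 a Golgi syntaxin. In HL60/MX2 the shortest were 18 nt in PTK2, the focal adhesion kinase, 21 nt in CD55 and in exons 16 and 22 of TSBP1, and 23 nt in TRIM48. Because short exons can be read at sight, some are printed whole, from hg19 on the strand of the gene, to show which were alike. TSBP1 (minus strand of chromosome 6) had exons 10 and 14 covered in HL60 and exons 16 and 22 in HL60/MX2, each of 21 nt, at chr6:32311015-32311035, chr6:32303689-32303709, chr6:32299811-32299831 and chr6:32284171-32284191. TRIM49 (chr11:89534134-89534156, minus) and TRIM49C (chr11:89771861-89771883, plus), paralogs of the tripartite motif family, each had exon 6 covered in HL60/MX2.
TSBP1 exon 10: ctttacctcaaggatccatga
TSBP1 exon 14: ccggagctacaggacctatca
TSBP1 exon 16: tgcaaactccaggacctattg
TSBP1 exon 22: gtcagctggcagcacctataa
TRIM49 exon 6: gcttttggagacatattacacag
TRIM49C exon 6: gcttttggagacatattacacag
The scores of the TSBP1 exons were 327 and 274 in HL60 and 1380 and 617 in HL60/MX2. The exons of TRIM49 and TRIM49C are identical over their 23 nt, and whether reads that run on into neighbouring exons tell the genes apart was not tested. Their scores were 861 and 761.

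At the long end, HL60 had exon 8 of GOLGA6L1, of 1203 nt and with a score of 730, followed by exons of 503 nt in RP11-1212A22.4, 492 nt in ZKSCAN2, 447 nt in NAV1 and 366 nt in FGD6. In HL60/MX2 the longest were 995 nt in GOLGA6L4 (score 2314), 938 nt in HIRIP3 (score 1886), 881 nt in RP13-996F3.5, 759 nt in ERICH1 and 697 nt in AEBP2. GOLGA6L1 and GOLGA6L4 belong to a golgin family of near-identical copies, whose reads can be placed on the wrong member.

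Most exons lay inside the gene and were shared by most isoforms. The median exon number was 9 of the transcript in HL60 (quartiles 5 to 16) and 8 in HL60/MX2 (4 to 16), against 8 (5 to 15) for the eligible exons, and the transcripts had a median of 20 and 18 exons, against 18. Exons in the first 20% of the coding sequence carried a whole-exon peak in 0.934% of cases in HL60 (0.820 to 1.06) and 0.860% in HL60/MX2 (0.751 to 0.981), and those in the last 20% in 0.811% (0.698 to 0.938) and 0.668% (0.565 to 0.784). The share was lower at the end than at the start of the coding sequence in both lists. The intervals overlap, which does not show that the shares are equal, and the difference was not tested. Of the covered exons spanned by several coding transcripts, 81.9% in HL60 and 82.5% in HL60/MX2 were present in every one of them, against 77.3% of the eligible exons. Lengths that are a multiple of 3, which keep the reading frame when an exon is skipped, made up 41.2% and 41.3%, against 40.9%.

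The covered exons were poorer in G and C than coding exons in general, and they were flanked by longer introns. Median GC content was 45.3% in HL60 (quartiles 40.9 to 50.9) and 46.6% in HL60/MX2 (41.4 to 53.3), whereas the quartiles of the eligible exons were 42.4% and 58.0%. Of exons with a GC content above 58.0%, 0.262% carried a whole-exon peak in HL60 (0.214 to 0.319) and 0.314% in HL60/MX2 (0.261 to 0.375), whereas between 42.4% and 50% GC 1.23% (1.13 to 1.34) and 0.95% (0.858 to 1.05) did. All eligible exons together gave 0.859% in HL60 and 0.717% in HL60/MX2. The 2 introns beside a covered exon added up to a median of 5621 nt in HL60 and 4755 nt in HL60/MX2, against 3710 nt for the eligible exons. From exons whose introns added up to at most 1520 nt to those with over 8351 nt, the share of exons that carried a peak rose from 0.402% (0.341 to 0.471) to 1.24% (1.13 to 1.36) in HL60 and from 0.458% (0.392 to 0.532) to 0.940% (0.845 to 1.04) in HL60/MX2. Neither feature was particular to whole-exon peaks. The other coding peaks had a median GC content of 47.2% and 49.0%, and the exons that held them were flanked by introns of 6166 nt and 5421 nt together. GC content and intron length vary together along chromosomes, and their separate parts were not tested.

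**Figure D2:**
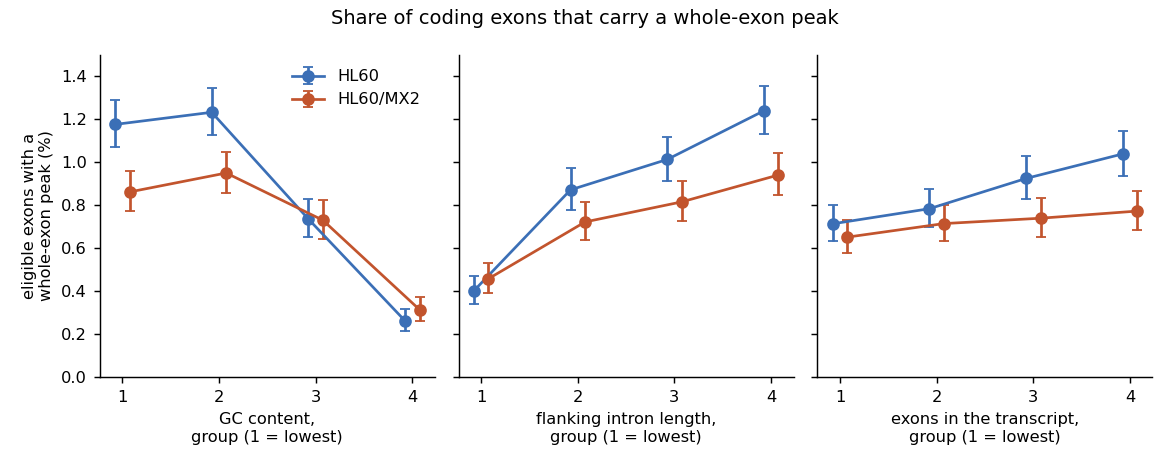
Percentage of eligible coding exons that carry a whole-exon peak (y axis) in 4 groups of near equal size by GC content, by the summed length of both flanking introns and by the number of exons in the transcript (x axes, 1 is the lowest group), for HL60 in blue and HL60/MX2 in orange with exact 95% intervals. The share drops to 0.262% and 0.314% in the group with the highest GC content and climbs to 1.24% and 0.940% in the group with the longest introns.

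Whole-exon peaks and other coding peaks had nearly the same median score. The score is the value that the authors deposited for each peak, on a scale that is not stated, so it was compared only within a list. Its median was 196 for the whole-exon peaks of HL60 (quartiles 113 to 344) and 197 for the other coding peaks (108 to 335). In HL60/MX2 the medians were 259 (126 to 479) and 252 (124 to 475). Among all peaks of their list, the whole-exon peaks had a median percentile of 49.6 in both lines.

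The leading scores lay in different genes in each list, with members of the GAGE12 family in both. In HL60/MX2, 11 whole-exon peaks shared the score of 3100, as did 53 peaks of the list in all. They lay in ANP32B, a histone chaperone with an acidic tail, NCL (nucleolin, of the nucleolus), ZC3H13, a subunit of the m6A writer complex, SREK1 and LUC7L3, which are splicing proteins, SUPT5H, a transcription elongation factor, CHAF1A, a subunit of chromatin assembly factor 1, INCENP, of the chromosomal passenger complex, AEBP2, a partner of Polycomb repressive complex 2, the cytokine gene IL27, and GAGE12C, a cancer-testis antigen gene of many copies. Of these 11 exons 0 were overlapped by an HL60 peak, beside only 6.97% of all whole-exon peaks of HL60/MX2, so few overlaps would be met among 11. Also, 0 of the 11 genes had any HL60 peak, whereas 54.4% of all whole-exon peaks of HL60/MX2 lay in a gene with one. An absent call does not show absent m7G, because a peak also needs the transcript to be present at sufficient depth, and expression was not analysed here.

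The exons with the highest scores in HL60 were ANTXRL exon 8 (score 3177), POTEM exon 3 and LPA exon 11 (both 3100), GAGE12G (3058), NPIPB7 (2642), C2CD6 (1917), MET (1893), MYOM3 (1739), TPTE2 (1712) and ASAH2C (1661). LPA encodes apolipoprotein(a) of the liver, MET the receptor of hepatocyte growth factor and MYOM3 a protein of the muscle M-band. Of these 10 exons 1 was overlapped by an HL60/MX2 peak, against 6.63% of all whole-exon peaks of HL60. In a gene with an HL60/MX2 peak lay 7 of the 10, against 56.9% of all whole-exon peaks of HL60. In 3 of these 10, LPA, GAGE12G and NPIPB7, a sequence identical to the exon occurs elsewhere among protein-coding exons, at 7, 10 and 6 places in all, and ANTXRL, POTEM, TPTE2 and ASAH2C have close paralogs or pseudogenes. Among all whole-exon peaks of at least 30 nt, 3.81% in HL60 and 3.30% in HL60/MX2 had such an identical copy, against 1.73% of the eligible exons. Reads that lie wholly inside identical copies cannot be placed on one of them.

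The share of purine-rich exons was higher among the whole-exon peaks of HL60/MX2 than among those of HL60. In HL60/MX2, 62 of 1119 exons of at least 30 nt (5.54%, 4.27 to 7.05) held at least 70% purines. In HL60, 22 of 1338 did (1.64%, 1.03 to 2.48). The 62 of HL60/MX2 include the 6 exons at the score of 3100 that were seen before purine content was chosen as a measure. Among the other coding peaks the shares were closer, with 3.17% in HL60/MX2 and 2.68% in HL60. Of the eligible exons 1.53% reached that level, or 1.86% and 1.76% when weighted to the exon lengths of HL60 and of HL60/MX2. At least 65% purines were held by 11.4% in HL60/MX2, 5.68% in HL60 and 4.91% of the eligible exons, and at least 75% by 2.59%, 0.523% and 0.453%. Codons made of purines alone encode lysine, glutamate, arginine and glycine, so such exons often encode charged stretches of protein.

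Purine-rich exons of HL60/MX2 were most frequent at the top of its scores. Among whole-exon peaks in the top 5% of the list by score, 14 of 60 exons (23.3%, 13.4 to 36.0) held at least 70% purines, against 48 of 1059 (4.53%, 3.36 to 5.96) below it. In HL60 the corresponding counts were 3 of 81 (3.70%, 0.770 to 10.4) and 19 of 1257 (1.51%, 0.912 to 2.35). The 14 of HL60/MX2 include the 6 exons at the score of 3100 that were seen before purine content and its level were chosen. That count is therefore not independent of the choice. The other coding peaks of HL60/MX2 reached 70% in 9 of 115 (7.83%, 3.64 to 14.3) in the top 5% and in 2.93% below, and those of HL60 in 3 of 111 (2.70%, 0.561 to 7.70) and in 2.68%. Purine content was 82.1% in the 363 nt of SREK1 exon 9, 81.8% in the 556 nt of ZC3H13 exon 12, 81.5% in the 119 nt of ANP32B exon 5 and 80.4% in the 230 nt of CHAF1A exon 5. INCENP had neighbouring exons covered, exon 15 with 74.3% purines and a score of 3100 and exon 16 with 77.2% and a score of 2683. Further exons of this kind in the top 5% lay in KAT6B (score 2066) and SMARCC1 (1245), which encode a histone acetyltransferase and a subunit of the BAF remodeler, in RTF1 (1469), of the PAF1 elongation complex, in HIRIP3, in TOP1 (1214), DNA topoisomerase I, in TOMM20L and in GOLGA6L4. The 62 purine-rich exons of HL60/MX2 lay in 58 genes. Of these 62, 3 were overlapped by an HL60 peak, beside 6.97% of all whole-exon peaks of HL60/MX2. Of the 22 of HL60, 1 was overlapped by an HL60/MX2 peak, beside 6.63% of all whole-exon peaks of HL60. The counts are too small to set the purine-rich exons apart from the rest.

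**Figure D3:**
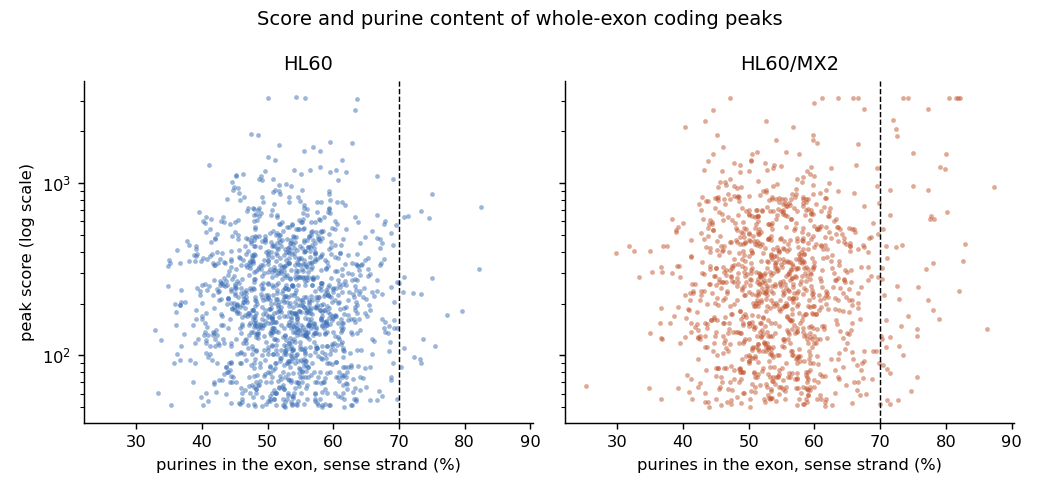
Peak score on a log scale (y axis) against the percentage of purines on the sense strand of the exon (x axis) for each whole-exon coding peak of at least 30 nt, with HL60 on the left and HL60/MX2 on the right and a dashed line at 70%. In HL60/MX2 62 exons lie right of the line, 14 of them in the top 5% of scores, and in HL60 22 exons do, 3 of them in the top 5%. The 14 include the 6 exons at the score of 3100 that were seen before this measure was chosen.

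The short motifs GGAAA and GGAAG, searched on the strand of the gene only, occurred in 42.1% of the covered exons of HL60 (39.4 to 44.8) and 47.3% of those of HL60/MX2 (44.3 to 50.2). Eligible exons, weighted to the same lengths and GC content, held them in 41.4% and 41.2%, and 42.4% of all eligible exons did. Of the 62 purine-rich exons of HL60/MX2, 50 held the motif, as did 15 of the 22 of HL60. Both forms of the motif consist of purines only, so purine-rich exons are prone to hold it. Motifs of 5 bases that begin with CTG and go on with G or T and then A or G, which can share bases with GGAAA or GGAAG, occurred in 53.7% and 52.8% of the covered exons, against 54.1% and 56.1% of the weighted eligible exons and 62.2% of all eligible exons. The paper reports both motifs, written GGAAR and CUGKR, from a search with DREME in the peaks of this series. The shares given here are therefore not independent of that search.

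Genes of large, many-exon proteins held the most covered exons, a count that also depends on how many exons a gene has. The 1357 peaks of HL60 lay in 1170 genes, of which 1016 held 1, and the 1133 of HL60/MX2 in 1008 genes, of which 910 held 1. TTN (titin, the spring of the sarcomere) had 9 exons in HL60 and 6 in HL60/MX2, of 360 eligible exons (2.5% and 1.67%), and NEB (nebulin) 2 and 5 of 177 (1.13% and 2.82%), beside 0.859% and 0.717% of all eligible exons. Since these genes were picked for their counts, the shares are a description only. MUC16, a membrane mucin, held 1 and 5 of 83, PKHD1 (fibrocystin) 5 and 1 of 63, and VPS13D, a lipid transfer protein, 0 and 6 of 67. The TTN scores ran from 60.3 to 702 in HL60 and from 56.6 to 325 in HL60/MX2, and those of VPS13D from 75.1 to 640. CACNA1E, LAMA1 (laminin alpha 1), MGAM (maltase-glucoamylase) and UNC79 each held 5 over both lists and ABCA12, a lipid transporter of the skin, held 4, a count it shared with other genes. Several of these genes are known from muscle, kidney, intestine or skin rather than from myeloid cells, and their expression in these lines was not analysed here.

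Neighbouring exons of a gene were both covered whole in 17 pairs in HL60 and 12 pairs in HL60/MX2. The introns between them ran from 605 to 34029 nt and from 354 to 6910 nt. In each pair the peaks carried different running numbers, which differed by a median of 2 in HL60 and 1 in HL60/MX2, so they were listed as separate calls.

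The 20 gene classes are read against the share over all eligible exons, 0.859% in HL60 and 0.717% in HL60/MX2, in 1 library each. Ion channels had 34 covered exons in HL60, or 1.35% of the class's eligible exons (0.937 to 1.88), and 13 in HL60/MX2, or 0.516% (0.275 to 0.881). CACNA1C exon 14 (score 204) and CACNA1G exon 5 (383) in HL60 and CACNA1B exon 7 (223) in HL60/MX2 were examples, all of voltage-gated calcium channels. ABC transporters, which move lipids, drugs and other compounds across membranes with ATP, had 18 covered exons in HL60 (1.5%, 0.892 to 2.36) and 9 in HL60/MX2 (0.751%, 0.344 to 1.42). ABCA13 had 4 of them in HL60, with scores from 78.3 to 343, and ABCA4, the retinal transporter, had 1 in each list, with scores of 310 and 419. None of the covered exons lay in ABCB1, ABCC1 or ABCG2, the transporters best known from drug resistance. Most single genes had none, since covered exons lay in 1170 genes in HL60 and 1008 in HL60/MX2, beside 17476 genes with eligible exons. Solute carriers had 36 (1.16%, 0.812 to 1.60) and 23 (0.707%, 0.444 to 1.07), and both intervals hold the share over all exons. Laminins, fibrillins and ADAMTS proteins of the matrix had 16 (1.52%, 0.868 to 2.45) and 8 (0.758%, 0.328 to 1.49), and cadherins and protocadherins 8 (1.43%, 0.620 to 2.80) and 4 (0.716%, 0.195 to 1.82).

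Chromatin modifiers and remodelers had 13 covered exons in HL60 (0.610%, 0.325 to 1.04) and 28 in HL60/MX2 (1.31%, 0.874 to 1.89). The 28 lay in 18 genes, among them ARID1B, ATRX, BAZ1A, BAZ2B and CHD2, which encode remodelers or their subunits, with scores of 65.7 for ARID1B exon 17, 195 for ATRX exon 29 and 676 for BAZ2B exon 11. The 13 of HL60 lay in 13 genes. The LRP, VPS13 and mucin genes had 6 (0.654%) and 14 (1.53%), of which VPS13D gave 6 and MUC16 gave 5 in HL60/MX2. Collagens, the triple-helix proteins of the matrix, had 29 (1.52%, 1.02 to 2.18) and 20 (1.05%, 0.642 to 1.62). Exon lengths that are a multiple of 9, the unit of 3 collagen triplets, made up 15 of the 29 in HL60 (51.7%, 32.5 to 70.6). In HL60/MX2 they made up 16 of the 20 (80%, 56.3 to 94.3). Both intervals hold the 64.3% of the eligible collagen exons. No class was tested, and with 20 classes some of these intervals would miss the share of all exons by counting error alone.

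Enzymes that modify RNA had 3 covered exons in each list, or 0.946% of their 317 eligible exons (0.196 to 2.74), which holds the share over all exons. METTL14 exon 8 was covered in both. HL60 also had METTL16 exon 4 (score 369), an m6A methyltransferase of U6 snRNA, and NSUN2 exon 6 (155), an m5C methyltransferase, and HL60/MX2 had VIRMA exon 7 (656) and ZC3H13 exon 12 (3100), both of the m6A writer complex. METTL1 and WDR4 had none, as was so for most genes. A list of 69 splicing factors, which does not hold SREK1 or LUC7L3, had 0 of 586 eligible exons in HL60 (upper bound 0.628%) and 3 in HL60/MX2 (0.512%, 0.106 to 1.49), namely HNRNPM exon 10 (1175), HNRNPA3 exon 8 (189) and PRPF6 exon 3 (139). Zinc finger proteins, whose coding sequence often lies in 1 long exon, had 5 (0.330%) and 7 (0.462%), and ribosomal protein genes had 0 in each list, of 174 eligible exons (exact upper bound 2.10%). Genes recurrently mutated in acute myeloid leukemia had 3 (0.548%, 0.113 to 1.59) and 1 (0.183%, 0.0046 to 1.01). KIT exon 20 (190), KMT2A exon 3 (175) and NF1 exon 46 (254) were covered in HL60 and SMC1A exon 6 (488) in HL60/MX2. DNA repair genes and topoisomerases had 6 covered exons in HL60, of which 5 were among the 1324 eligible (0.378%), and 7 in HL60/MX2 (0.529%). Among them, ERCC6 exon 7 (170), CHEK2 exon 14 (111) and MRE11 exon 14 (55.0) were covered in HL60 and FANCD2 exon 25 (50.1) and NBN exon 11 (389) in HL60/MX2. TOP1, of the same class, had exons 4 (1214) and 7 (619) covered in HL60/MX2. TOP2A and TOP2B, the targets of mitoxantrone, had none, as was so for most genes.

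**Figure D4:**
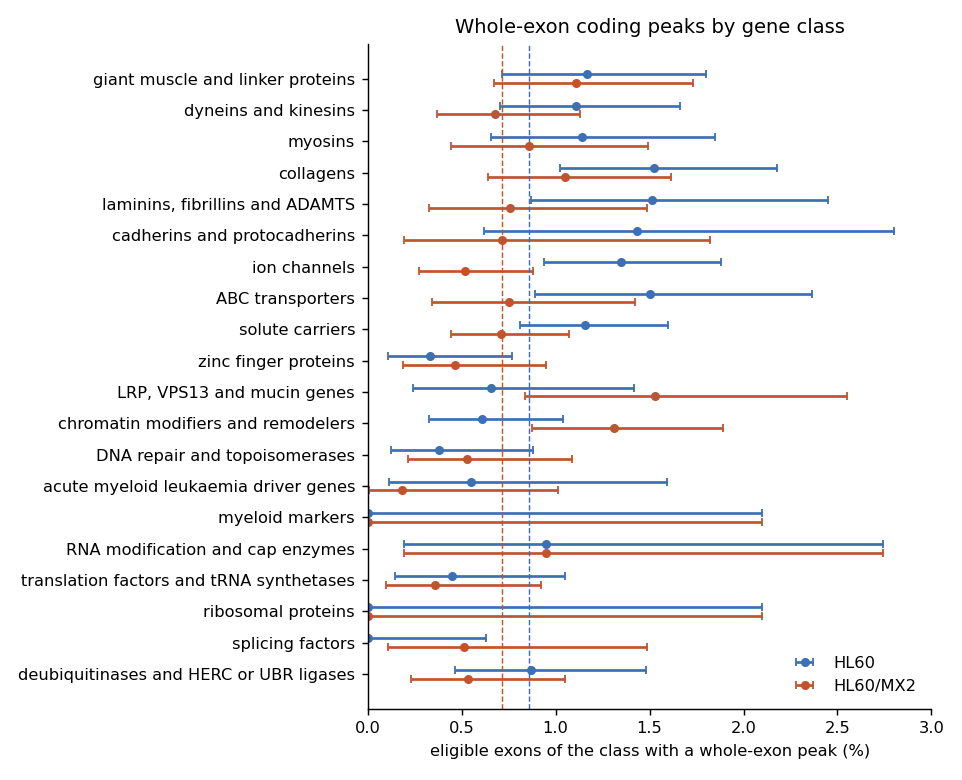
Percentage of the eligible coding exons of each of 20 gene classes that carry a whole-exon peak (x axis), for HL60 in blue and HL60/MX2 in orange with exact 95% intervals and dashed lines at 0.859% and 0.717%, the shares over all eligible exons. Ion channels lie at 1.35% in HL60 and 0.516% in HL60/MX2, and chromatin modifiers and remodelers at 0.610% and 1.31%.

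Chromosomes carried unequal shares of covered exons, beside 0.859% in HL60 and 0.717% in HL60/MX2 over all eligible exons. On chromosome 18, 2.10% of the eligible exons carried a whole-exon peak in HL60 (1.57 to 2.75) and 0.823% in HL60/MX2 (0.504 to 1.27), and on chromosome 10 1.39% (1.12 to 1.71) and 0.651% (0.470 to 0.879). On chromosome 19 the shares were 0.361% (0.243 to 0.514) and 0.433% (0.303 to 0.599). These chromosomes were picked for their high or low shares in HL60, so the values are a description only. Other coding peaks were not compared by chromosome, so the pattern need not be particular to whole-exon peaks. The number of DNA copies of these chromosomes in the lines was not analysed here.

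Few covered exons recurred between the lines, at about the rate of all peaks. In HL60, 90 of 1357 whole-exon peaks (6.63%, 5.37 to 8.09) were overlapped by at least 1 bp of an HL60/MX2 peak on the same strand, against 6.13% of all HL60 peaks and 5.54% of its other coding peaks. In HL60/MX2 79 of 1133 (6.97%, 5.56 to 8.61) were overlapped, against 6.09% of all its peaks and 6.07% of its other coding peaks. More often the gene recurred, as 56.9% of the whole-exon peaks of HL60 lay in a gene with a peak in the other list. That share counts a peak anywhere in the gene, overlapping ones included. Among the other coding peaks of HL60 it was 54.3%, so recurrence of the gene was not particular to whole-exon peaks. Genes with a whole-exon peak in both lists numbered 229, of 1949 with one in either.

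Where a covered exon met a peak of the other line, it was often covered whole again. The same exon was covered in both lists in 49 cases. That is 54.4% of the overlapped peaks of HL60 (43.6 to 65.0) and 62.0% of those of HL60/MX2 (50.4 to 72.7). Of the eligible exons covered in HL60/MX2, 4.25% (3.14 to 5.62) were also covered in HL60, against 1.30% (1.15 to 1.48) of the other eligible exons of the same genes. In the other direction the shares were 3.55% (2.62 to 4.70) and 1.01% (0.886 to 1.15). The 49 exons had a median length of 107 nt and 46 of them occurred in every coding transcript that spans them. This count takes in any exon spanned by a single coding transcript, so it is not comparable with the earlier shares for exons spanned by several.

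Scores of these recurring exons did not follow each other. Placed as percentiles in their own lists, 16 lay above the median in both, 10 below it in both, 11 above it in HL60 alone and 12 above it in HL60/MX2 alone. Spearman's rho over the 49 exons was 0.0064, a description over exons of 1 library per line. UNC13A exon 30, of 144 nt, had scores of 1111 in HL60 (percentile 98.8) and 1893 in HL60/MX2 (98.6). GOLGA6L26 exon 5, which has identical copies, had 549 (91.3) and 1907 (98.6). C2CD6 exon 8 had 1917 and 611, SLC36A3 exon 4, of an amino acid transporter, 397 and 686, and MYL1 exon 3, of a muscle myosin light chain, 370 and 808. PHKA1 exon 30, of phosphorylase kinase, had 352 and 534, and DBR1 exon 2, of the enzyme that debranches intron lariats, 315 and 646. The scales of the scores may differ between the lists.

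Others stood far apart. MAP4K4 exon 12, of a kinase that acts on the JNK pathway, lay at percentile 23.1 in HL60 (score 103) and 96.2 in HL60/MX2 (score 1225). GPN1 exon 11, of a GTPase that brings RNA polymerase II into the nucleus, lay at 94.9 (678) and 16.5 (98.7). WRN exon 33, of the helicase lost in Werner syndrome, lay at 2.40 (54.5) and 97.0 (1357). METTL14 exon 8 kept its place, at percentile 39.1 with a score of 154 in HL60 and at 39.7 with a score of 201 in HL60/MX2.

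By the lower of both scores, the 15 leading exons were those of UNC13A, C2CD6, GOLGA6L26, SLC36A3, MYL1, PHKA1, GAGE2D, DBR1, DCC, DSC2, IL15, CHP2, VPS13C, DLG3 and SMC5. This order takes the scores as listed, on scales that may differ between the lists. DCC (the netrin receptor) had 707 and 306, DSC2 (desmocollin 2) 313 and 288, IL15 (a cytokine of T and NK cells) 513 and 278, and CHP2 862 and 277. VPS13C had 252 and 257, DLG3 (a scaffold of the synapse) 248 and 265, and SMC5 (of the SMC5/6 complex) 288 and 244. The others were in RB1, NBPF1, APPBP2, DGKB, NLK, NBPF20, PPFIA3, TMC3, METTL14, ZFYVE9, MAP3K3, CD55, POTEE, HSF5, SYDE2, CDH10, ABCA12, FOXP2, FAM135B, MAP4K4, PALLD, GPN1, BAZ1A, ADGRL3, RP11-1212A22.4, TTC13, EPS15, TTN, GRHL2, REV3L, TMX3, WRN, SLIT1 and SLCO5A1. Of the 49, 4 have an identical exon elsewhere, those of GOLGA6L26, GAGE2D, NBPF20 and TTN, and 45 remain without them.

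**Figure D5:**
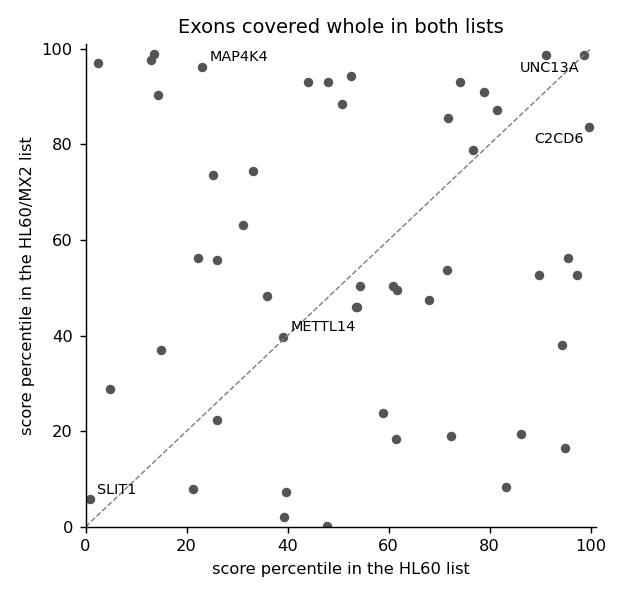
Score percentile in the HL60/MX2 list (y axis) against score percentile in the HL60 list (x axis) for the 49 exons covered whole in both lists, 1 point per exon, with a dashed line of equal percentiles. The points fill the square with a Spearman's rho of 0.0064, UNC13A lies near the top of both axes and MAP4K4 lies at 23.1 in HL60 and 96.2 in HL60/MX2.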

How the data were processed

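The authors trimmed reads with Cutadapt 1.9.3, aligned them to hg19 with Hisat2 2.0.4, called peaks with MACS (version not given in the sources used here), and kept peaks over exons of protein-coding genes with their own scripts. The submitters' processing notes also name STAR. Each list gives position, strand and the deposited score of each peak, from 50 to 3177 in HL60 and from 50.03 to 3100 in HL60/MX2. Starts were turned from counting from 0 to counting from 1. Exons came from GENCODE release 44 placed on hg19, whose chromosome 1 measures 249250621 bp in the genome used, and a peak took the gene with the largest exon overlap. For 1 covered exon of HL60/MX2 the genome file holds no bases, and it was left out of base composition. Intervals of medians are exact order-statistic intervals. Members, gene classes and alternatives were chosen with earlier results of these data known. Genes were named if covered in both lists (values for the 15 with the highest lower score), if among the 10 highest scores or the 5 shortest or longest exons of a list, among the 10 genes with the most members, the first of each class in alphabetical order, or a preset drug or m7G gene; purine-rich exons, high class counts, and some recurring exons were named after their values were seen. Python 3.11.15, numpy 2.4.6, scipy 1.17.1 and matplotlib 3.10.9 were used. Only the whole-exon rule, the overlap between lists and the intervals were tested on simulated data.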

Additional observations from a re-analysis of the deposited data

How the results depend on the processing

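Of 139 values recomputed for 15 results under 11 alternatives, 129 stayed within the reported 95% interval or, for counts, within 1.5 times the reported count. With peaks limited to scores at or above the median of each list, which by construction leaves fewer peaks, HL60 had 677 whole-exon peaks and HL60/MX2 566, 4.58% and 4.42% of them were overlapped by a remaining peak of the other list, 16 exons were covered in both, and the median scores were 347 and 479. A stricter overlap lowered the shared part by construction, to 5.23% of the HL60 peaks when at least 50% of both peaks had to overlap, and to 3.61% and 4.32% when start and end had to be the same. Leaving out exons with an identical exon elsewhere, an alternative chosen after seeing the data, kept 1306 and 1096 peaks and shared parts of 6.58% and 6.75%. No paired analysis was possible because each line has 1 library. The number of libraries and the unknown depth limit every comparison between the lines, and no interval covers the spread between cultures.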
